A study of Mus musculus with 46 samples.

Results

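The low-density lipoprotein (LDL) receptor family was followed here through 7 of its genes, Lrp8, Lrp1, Lrp4, Lrp5, Lrp6, Lrp10 and Lrp12, in bulk RNA-seq of 46 AB1-HA tumors. The members were taken by name from the 46011 genes with a value in every tumor, and all 7 passed the filter on low counts, as did 13194 genes in the model of the 6 groups. The rows used end at Pax7 in their order, so the relatives Vldlr and Sorl1, the ligand Reln and the Wnt genes were not analysed. Lists and shares of all genes cover only the rows present. Lrp8 was chosen on its own values in these tumors. Its rank, the 5th smallest p of 13194 genes between day -1 and day 3, pointed to that comparison. The differences of Lrp8 between days, and its difference between responders and progressors before treatment, are therefore a description and carry no test.

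AB1-HA is a murine mesothelioma line that carries a hemagglutinin antigen, grown subcutaneously in male BALB/c mice aged 8 to 10 weeks. Every mouse carried a tumor on each flank and was given cyclophosphamide (CY), an alkylating chemotherapy, at 200 mg/kg on day 10 after inoculation. The analysed tumor was resected and the remaining tumor showed whether the mouse was a complete responder (CR) or a progressor (PR, called a partial responder in the series' design). Tumors were resected on day 9, 1 day before CY (day -1, 13 CR and 13 PR), on day 13 (day 3, 5 CR and 5 PR) or on day 17 (day 7, 5 CR and 5 PR), each from a different mouse. All tumors are thus of 1 line, strain and sex, and the tumors of day -1 had not been exposed to the drug when they were removed. No untreated tumors of day 13 or 17 were analysed here, so time after CY, tumor age, sequencing depth and the set of mice cannot be told apart.

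Receptors of this family bind lipoproteins, proteases, matrix proteins or Wnt antagonists through their extracellular repeats and carry them into the cell through motifs in a short cytoplasmic tail. Cells raise the transcription of genes for sterol uptake and synthesis through the transcription factor SREBP2 when sterols are scarce. Lrp8, also called apolipoprotein E receptor 2, binds apolipoprotein E and reelin and signals through the adaptor Dab1. Lrp5 and Lrp6 are the Wnt coreceptors, Lrp4 is the agrin receptor of the neuromuscular synapse and also binds Wnt inhibitors, and Lrp1 is a broad scavenger receptor of macrophages and fibroblasts. Lrp10 and Lrp12 are smaller and less studied relatives.

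Depth was 10.2 to 14.2 M estimated counts before CY, 15.4 to 18.7 M on day 3 and 16 to 19.4 M on day 7. The levels below are CPM, counts scaled to the library size after TMM normalization. Markers of several cell types moved with the days, and the summed level of 8 genes of dividing cells had a median of 2880 CPM on day -1, 1696 CPM on day 3 and 619 CPM on day 7. The sum of 10 macrophage markers was 1752 to 3981 CPM, 4535 to 7239 CPM and 8088 to 10441 CPM on the same days. Mesothelium markers (6 genes), which check the label of the line, were present on every day but ranged from 285 to 613 CPM before CY and from 52.5 to 135 CPM on day 7. Fibroblast markers (8 genes) had medians of 23473, 31357 and 14005 CPM, T cell markers (9 genes) medians of 100, 75.1 and 370 CPM, endothelial markers (7 genes) 223, 247 and 294 CPM, and fat cell markers (5 genes) 123, 159 and 308 CPM. Keratinocyte markers (12 genes) spanned 1.52 to 899 CPM and skeletal muscle markers (12 genes) 190 to 2557 CPM over all tumors, and no marker was at 0 in every tumor. The part of these cell types in the results below was not tested, and in bulk tissue fewer cells of a type and less RNA per cell cannot be told apart.

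The members differed widely in level when counts were set per kilobase of annotated exon. On day -1, Lrp1 was highest at 59.3 ± 4.87 CPM per kb (SD, n = 26), followed by Lrp10 at 32.6 ± 2.62 and Lrp6 at 14.6 ± 1.46 CPM per kb. Lrp8 came next at 8.85 ± 1.1 CPM per kb, ahead of Lrp12 at 3.08 ± 0.404, Lrp4 at 2.36 ± 0.357 and Lrp5 at 2.27 ± 0.303 CPM per kb. On day 3 Lrp8 was the lowest member, at 0.797 ± 0.0902 CPM per kb (SD, n = 10). On day 7 the lowest were Lrp8, at 1.61 ± 0.228, and Lrp4, at 1.62 ± 0.418 CPM per kb (SD, n = 10), about equal. On day 7 Lrp10, at 59.9 ± 4.32 CPM per kb, stood above Lrp1, at 46 ± 4.23 CPM per kb.

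Lrp8 lies on chromosome 4 (chr4:107802261-107876840, plus strand, GRCm38). Its level before CY was 76.3, 87.7 and 106 CPM (lowest, median, highest) in the 13 CR tumors and 77, 99.7 and 121 CPM in the 13 PR tumors. On day 3 the CR tumors had 7.61, 9.72, 7.92, 9.45 and 8.81 CPM and the PR tumors 7.46, 7.4, 7.49, 8.31 and 9.65 CPM. Every tumor of day 3 was thus far below every tumor of day -1, on 133 to 178 counts per tumor. On day 7 the CR tumors had 16.5, 15, 20.1, 12.5 and 20.4 CPM and the PR tumors 15.9, 16.9, 18.9, 15.9 and 16.7 CPM. These lay between the other days and overlapped neither.

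The group means of Lrp8 were ordered PR day -1 (97.1 ± 12 CPM), CR day -1 (89 ± 9.97), then CR and PR on day 7 (16.9 ± 3.37 and 16.9 ± 1.23) and CR and PR on day 3 (8.7 ± 0.922 and 8.06 ± 0.959). CR and PR of the same day overlapped in each case, and neighbouring days did not. Against day -1, Lrp8 was 11.5-fold lower on day 3 (log2 fold change -3.52, SE 0.08) and 5.52-fold lower on day 7 (log2 fold change -2.47, SE 0.07). Between day 3 and day 7 it was 2.07-fold higher (log2 fold change 1.05, SE 0.08). In the same tumors the summed level of the dividing cell markers was lower on day 3 than on day -1, and lowest on day 7. The part of dividing cells in the Lrp8 values was not tested. The antisense genes within Lrp8, Lrp8os1 and Lrp8os2, had at most 2 counts in any tumor.

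**Figure D1:**
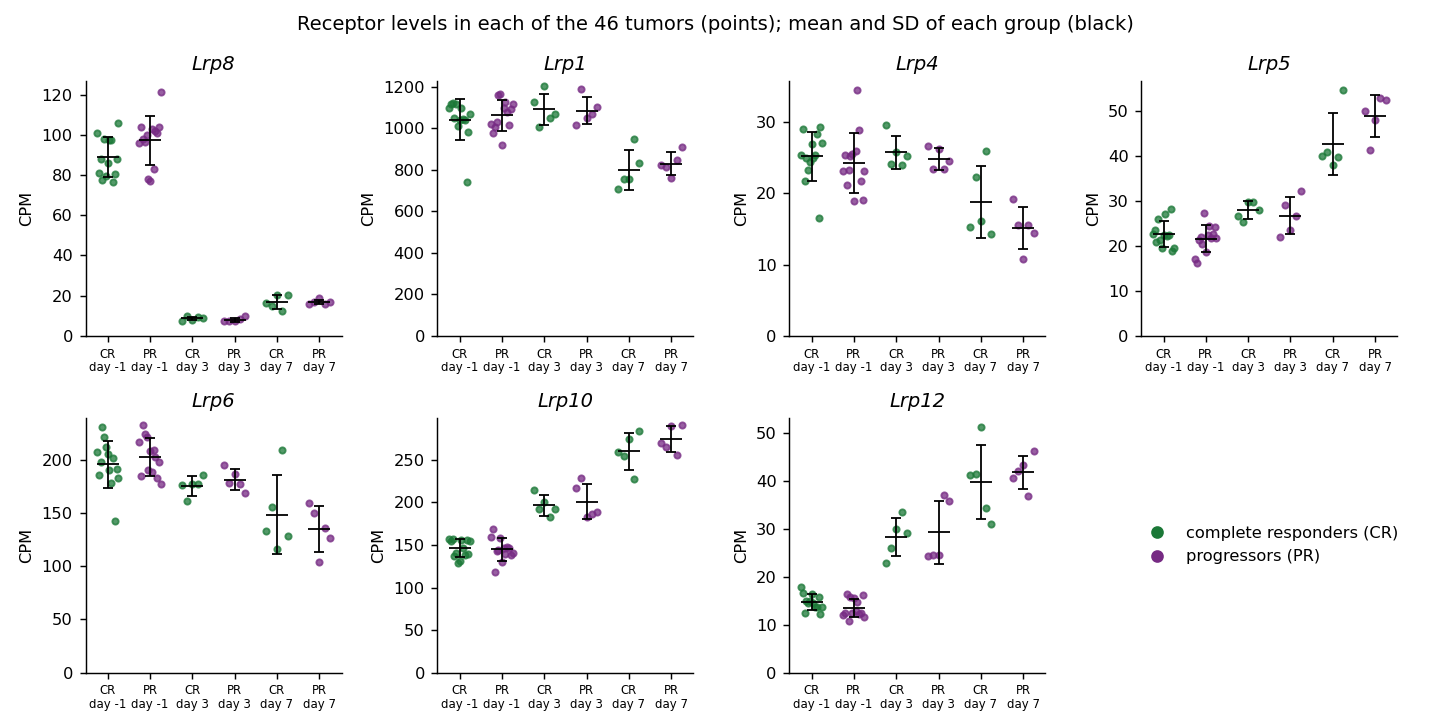
CPM (y axes, linear, from 0) of the 7 members in each of the 46 tumors, by response and day; points are tumors (green CR, purple PR) and black bars the mean and SD of a group. Lrp8 was far below its day -1 level on day 3, Lrp5, Lrp10 and Lrp12 were highest on day 7, and CR and PR overlapped on every day.

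Of 8 further relatives of the family listed, 5 could be tested. By day 3, 3 of them were higher and 2 lower, and by day 7, 1 was higher and 3 were lower, so that 5 and then 4 of the 5 were called, where 77.6% and 85.9% of all genes were. Ldlrad4, which restrains TGF-beta signalling, had log2 fold changes of -0.25 and -0.97, and Ldlrad3 had -0.58 and -0.49, all past the threshold. Ldlrad2, at a mean of only 0.49 CPM before CY, was higher on day 3 (0.74, SE 0.20), and Lrp3 was higher on both days (0.65 and 0.79, SE 0.18 each). Lrp11 was 0.37 lower on the log2 scale by day 7. Lrp1b, Lrp2 and Ldlrad1 were at or near 0, at no more than 12 counts in any tumor, and were not tested.

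Genes that cells switch on when sterols are scarce fell beside Lrp8. Their list, like the others here, was chosen with earlier results of these data known. Its counts are therefore a description and not independent support. All 16 of a list of sterol-responsive genes passed the test in the lower direction on day 3, with a median log2 fold change of -2.10, where 39.6% of all tested genes were lower, 37.9% higher and the median of all genes was -0.02. On day 7, 14 were lower and 2 higher, with a median of -1.79 (background 42.8% lower and 43.0% higher). Idi1, the isomerase of isoprenoid precursors, was 13.9-fold lower on day 3 (log2 fold change -3.80, SE 0.12, adjusted p = 1.08e-28). Hmgcs1, which makes HMG-CoA, had a log2 fold change of -2.57 (SE 0.08) on day 3 and -2.09 (SE 0.08) on day 7. Cyp51, the lanosterol demethylase, had -2.85 (SE 0.10) and -2.68 (SE 0.10), and Hsd17b7, an enzyme of late sterol synthesis, -2.52 (SE 0.10) on day 7. The members that rose by day 7 were Ebp, the sterol isomerase, with a log2 fold change of 0.92 (SE 0.04), and Mvd, the mevalonate decarboxylase, with 0.52 (SE 0.09; Mvd is named after its values were seen). Between day 3 and day 7, 11 of the 16 were higher and 3 lower (background 38.8% higher, 36.5% lower).

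Genes of cholesterol efflux moved the other way. Of 6 listed, 5 rose by day 3 (median log2 fold change 1.46) and 6 by day 7 (median 1.92), against 37.9% and 43.0% of all genes. Abcg1, which exports cholesterol to lipoprotein particles, rose 4.61-fold by day 3 and 15.5-fold by day 7 (log2 fold changes 2.21 and 3.96, SE 0.10 each). Abca1, which loads apolipoprotein A-I, rose by 1.70 and 2.01 on the log2 scale, and Apoe, a ligand of Lrp8, by 2.33 and 2.73. Mylip, a ubiquitin ligase known to direct the Lrp8 protein to degradation, rose by 1.23 (SE 0.06) and 1.20 (SE 0.06). Nr1h3, the sterol-sensing nuclear receptor LXR alpha, rose by 1.82 by day 7. The macrophage marker sum was higher on the same days, and its part in these values was not tested.

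**Figure D2:**
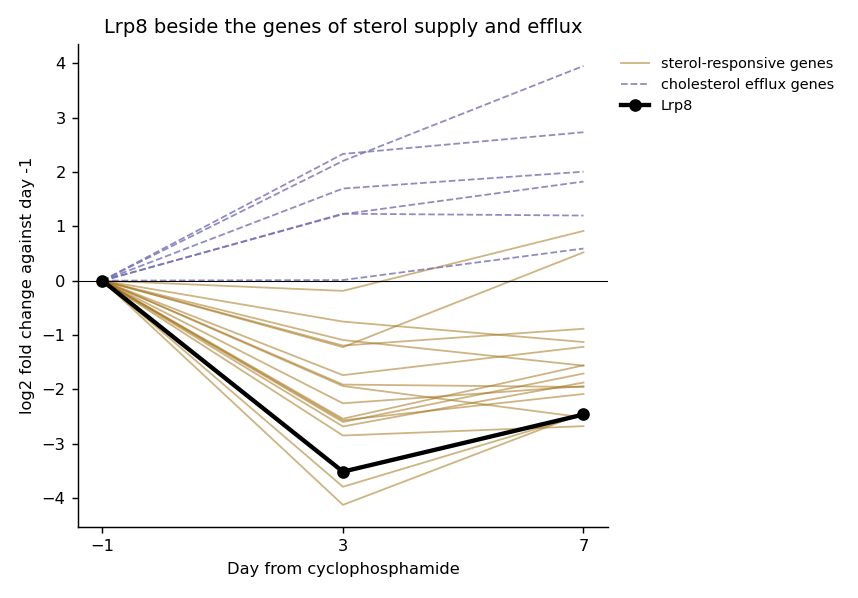
Log2 fold change against day -1 (y axis) by day from CY (x axis) for Lrp8 (black), the 16 sterol-responsive genes (brown) and the 6 cholesterol efflux genes (purple, dashed); day -1 is 0 by construction. Lrp8 (-3.52, then -2.47) lay among the sterol-responsive genes on both days, and every efflux gene was at or above 0.

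Among the 5 genes whose log2 CPM followed Lrp8 most closely over the 46 tumors were Idi1 (Pearson r = 0.992, Spearman rho = 0.950), Myadm (0.989 and 0.840), Nup153 (0.988 and 0.875) and Insig1 (0.986 and 0.934). Idi1 and Insig1, the sterol sensor that holds SREBP2 back, are on the sterol-responsive list. These tumors fall into clusters by day, so the values mostly restate the change between days. After each group's mean was taken off, the 5 closest genes included Fanca (r = 0.784, rho = 0.752), Gm4737 (0.741 and 0.758), Nsdhl (0.736 and 0.608) and Lss (0.726 and 0.575). Nsdhl and Lss are enzymes of sterol synthesis and Fanca a DNA repair gene.

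Within groups, the mean log2 CPM of the 16 sterol-responsive genes was taken beside Lrp8 in each tumor. Over the 46 tumors r was 0.703 (rho = 0.592), and over the 44 left without the 2 tumors farthest from the median of the sterol mean it was 0.604 (rho = 0.534). By day, r was 0.853 over the 26 tumors of day -1 (rho = 0.787), 0.756 over the 10 of day 3 (rho = 0.806) and 0.479 over the 10 of day 7, where rho was only 0.164. Taken singly, the 16 genes had r of 0.511 or more with Lrp8 within groups and a median of 0.611, where the median of all genes was 0.015. The other 6 members were not close to Lrp8 on this measure, from -0.475 for Lrp6 and -0.355 for Lrp4 to 0.229 for Lrp10. These correlations are given as a description, and all points of a gene pair share their library, depth and normalization. Over the 21 pairs of members the median r within groups was -0.030, and the highest was 0.571 for Lrp4 and Lrp6 (rho = 0.362).

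**Figure D3:**
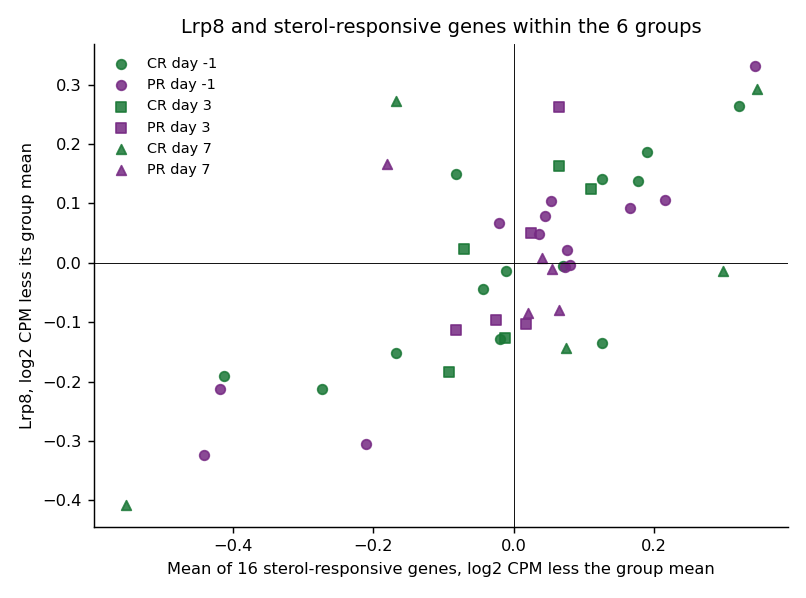
Log2 CPM of Lrp8 (y axis) against the mean log2 CPM of 16 sterol-responsive genes (x axis), each less the mean of the tumor's group, for 46 tumors; color gives the response and shape the day. The points rise together over all tumors (r = 0.703), and the lowest of both is a CR tumor of day 7.

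Promoter windows of the NCBI RefSeq annotation (GRCm38.p6) were read for the letters of 3 motifs known from sterol-regulated promoters, on both strands: TCACNCCAC, a form of the sterol regulatory element bound by SREBP2, CCAAT, bound by NF-Y, and GGGCGG, bound by Sp1. None of these motifs lies within another. Of the 250 bases before the start in 32851 windows, 1.05% held the sterol regulatory element, 33.8% held CCAAT and 32.7% held GGGCGG. In 15 windows of 13 sterol-responsive genes the counts were 1, 12 and 14. Windows were found for 3 members. The starts of the 3 windows of Lrp8 lie 624, 20900 and 28692 bases inside the gene as GENCODE annotates it, so they are not shown, and they held none of the motifs. Shown are Hmgcs1, which fell beside Lrp8 and held all 3 motifs, and Lrp1 and Lrp10, the members whose window ends within 10 bases of the GENCODE start, with the matched letters in capitals and the bases read 5′ to 3′ on the gene's strand.
Hmgcs1 (chr13:119690101-119690350, plus strand): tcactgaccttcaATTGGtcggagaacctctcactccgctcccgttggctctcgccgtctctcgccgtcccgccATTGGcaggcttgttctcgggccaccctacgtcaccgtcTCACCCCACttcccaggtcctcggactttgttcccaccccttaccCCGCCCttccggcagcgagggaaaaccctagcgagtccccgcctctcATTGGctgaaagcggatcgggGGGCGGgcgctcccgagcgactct
Lrp1 (chr10:127621149-127621398, minus strand): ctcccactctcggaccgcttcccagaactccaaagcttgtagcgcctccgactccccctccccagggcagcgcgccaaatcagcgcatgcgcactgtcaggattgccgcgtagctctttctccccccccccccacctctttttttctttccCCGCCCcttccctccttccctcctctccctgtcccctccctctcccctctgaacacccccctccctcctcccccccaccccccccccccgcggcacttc
Lrp10 (chr14:54463897-54464146, plus strand): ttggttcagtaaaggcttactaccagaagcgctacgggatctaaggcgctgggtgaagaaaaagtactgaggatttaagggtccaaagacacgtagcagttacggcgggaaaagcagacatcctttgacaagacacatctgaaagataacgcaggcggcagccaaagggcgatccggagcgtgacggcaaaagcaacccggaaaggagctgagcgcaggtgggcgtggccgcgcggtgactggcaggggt
The Hmgcs1 stretch holds 1 sterol regulatory element, 3 CCAAT boxes, all read on the other strand, and 2 GC boxes. Lrp1 holds a single GC box and neither of the other motifs, and Lrp10 holds none of them. The last 10 bases of the Lrp10 stretch are in its exon 1 by GENCODE. Gm10366, a gene that overlaps Lrp10, had 4 to 30 counts per tumor. A match here is a match of letters only, and its absence says nothing of binding.

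The other 6 members were tested between days. On day 3, 4 of 6 differed from day -1, Lrp5, Lrp10 and Lrp12 being higher and Lrp6 lower, against 77.6% of all genes tested. On day 7 all 6 differed from day -1, against 85.9% of all genes, and all 6 differed between day 7 and day 3, against 75.3%. These shares are near the background, so the members are described by their direction and size.

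**Figure D4:**
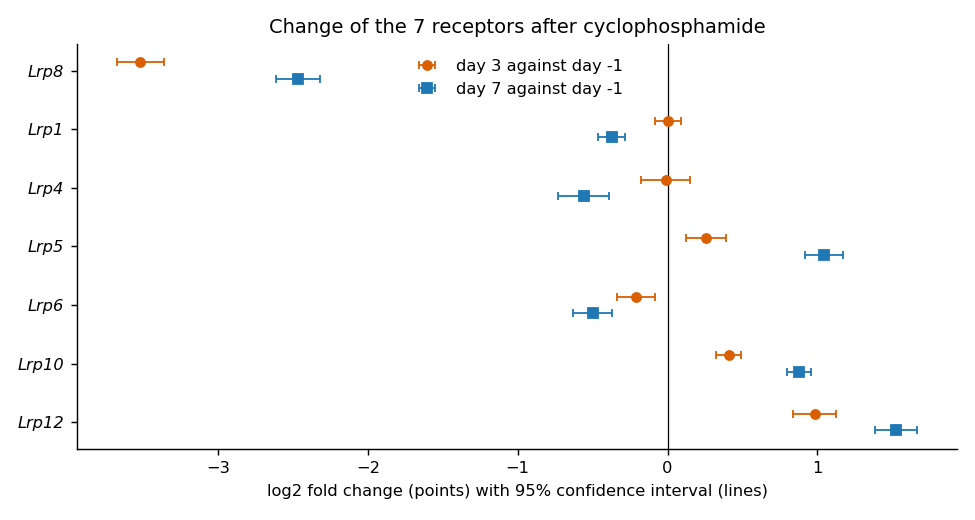
Log2 fold change against day -1 (x axis) of the 7 members on day 3 (orange circles) and day 7 (blue squares), with 95% confidence intervals as lines. Lrp8 lay at -3.52 and -2.47, Lrp12, Lrp10 and Lrp5 lay above 0 on both days, and Lrp1 and Lrp4 included 0 on day 3 and lay below 0 on day 7. The intervals of Lrp8 are drawn as a description and carry no test.

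The Wnt coreceptors moved apart. Lrp5 (chr19:3584828-3686564, minus strand) had 18.8, 22.4 and 28.2 CPM (lowest, median, highest) in CR and 16.3, 21.8 and 27.3 CPM in PR before CY. On day 3 its values were 26.7, 25.2, 29.8, 29.8 and 27.9 CPM in CR and 22, 29.1, 23.6, 26.6 and 32.1 CPM in PR, overlapping day -1. On day 7 they were 40, 40.9, 37.9, 39.8 and 54.7 CPM in CR and 49.9, 41.3, 47.9, 52.8 and 52.5 CPM in PR, above every earlier tumor. Lrp5 rose 1.2-fold by day 3 (log2 fold change 0.26, SE 0.07, edgeR adjusted p = 7.18e-04) and 2.06-fold by day 7 (1.04, SE 0.06, adjusted p = 2.9e-19).

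Lrp6 (chr6:134446476-134566965, minus strand) had 142, 198 and 231 CPM (lowest, median, highest) in CR and 177, 203 and 233 CPM in PR before CY. On day 3 it had 176, 161, 177, 177 and 186 CPM in CR and 195, 178, 187, 177 and 169 CPM in PR. On day 7 it had 133, 156, 116, 209 and 128 CPM in CR and 159, 150, 104, 136 and 126 CPM in PR. The ranges of all 3 days overlapped, and 6 of 10 tumors of day 7 were below the lowest of day -1. Lrp6 fell by 0.21 on the log2 scale by day 3 (SE 0.06, adjusted p = 0.00404) and by 0.50 by day 7 (SE 0.07, adjusted p = 3.33e-09).

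Lrp4 (chr2:91457511-91513779, plus strand) did not differ detectably between day -1 and day 3. It had 16.6, 25.4 and 29.3 CPM in CR and 18.9, 23.3 and 34.6 CPM in PR before CY, and 23.4 to 29.6 CPM in the 10 tumors of day 3. On day 7 the CR tumors had 15.3, 22.3, 16.2, 26 and 14.3 CPM and the PR tumors 19.2, 15.6, 10.8, 15.6 and 14.5 CPM. Its log2 fold change was -0.01 on day 3 (95% interval -0.18 to 0.15) and it fell by 0.56 on the log2 scale by day 7 (SE 0.09, adjusted p = 1.62e-07).

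A CR tumor of day 7, replicate 4, stood apart in these genes, with the highest Lrp6 (209 CPM), Lrp4 (26 CPM) and Lrp1 (950 CPM) and the lowest Lrp8 (12.5 CPM) and Lrp10 (228 CPM) of its day. Its fibroblast marker sum, 31945 CPM, was also the highest of that day. CR replicate 11 of day -1 had the lowest Lrp1 (742 CPM), Lrp6 (142 CPM) and Lrp4 (16.6 CPM) of its day. Without both tumors, an alternative chosen after seeing the data, the log2 fold changes on day 7 against day -1 were -0.59 for Lrp6, -0.65 for Lrp4, -0.42 for Lrp1 and -2.42 for Lrp8.

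Of the genes that work with the Wnt coreceptors, more were lower after CY than higher. Of 27 tested partners and beta-catenin pathway genes, 19 fell and 5 rose by day 3, and 21 fell and 3 rose by day 7, with median log2 fold changes of -0.18 and -0.58. Of all genes, 39.6% fell and 37.9% rose by day 3, and 42.8% fell and 43.0% rose by day 7. Apc, a scaffold of the beta-catenin destruction complex, fell 2.03-fold by day 3 and 2.11-fold by day 7 (log2 fold changes -1.02 and -1.08, SE 0.04 each). The kinase Gsk3b fell by 0.66 on the log2 scale by day 3, and Csnk1g1, a kinase that can phosphorylate Lrp6, fell by 0.55 and 0.81. Csnk1a1, another kinase of the destruction complex, fell by 0.38 by day 3. By day 7 Csnk1g3, of the same kinase family, fell by 0.54, and Dvl3, a dishevelled adaptor of the receptor complex, by 0.81. The list thus mixes activators and inhibitors of the pathway, and both kinds fell.

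Of 10 tested beta-catenin target genes, 5 fell and 1 rose by day 3, and 6 fell and 2 rose by day 7. Of all genes, 39.6% fell by day 3 and 42.8% by day 7, so the count on day 3 is near the background. Axin2, a feedback inhibitor often read as the pathway's output, fell 2.36-fold by day 3 (log2 fold change -1.24, SE 0.08, adjusted p = 3.13e-19) and 2.18-fold by day 7 (-1.12, SE 0.08). Myc fell by 2.08 and 1.38 on the log2 scale, and Ccnd1, cyclin D1, fell by 2.67 by day 7. Apcdd1, a Wnt inhibitor that binds Lrp5, rose by 0.82 by day 3. Bmp4, at a mean of only 0.611 CPM before CY, rose by 2.09 by day 7. Cd44 fell by 0.63 by day 3. Myc and Ccnd1 also follow cell division, and the dividing cell marker sum was lower on the same days. The part of dividing cells in these values was not tested.

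Around Lrp4, the list of agrin and synapse genes had 6 tested, of which 4 rose and 2 fell by day 3 and 3 rose and 2 fell by day 7. The numbers called, 6 and then 5 of 6, stand beside 77.6% and 85.9% of all genes and are nothing particular to the list. Agrn, the ligand of Lrp4, rose by 0.58 (SE 0.05) on the log2 scale by day 3 and 0.19 (SE 0.05) by day 7. The acetylcholine receptor subunit Chrnb1 fell by 1.14 and 1.98, Chrna1 had 1.30 and -0.66, and Chrnd rose by 0.98 and 1.61. Chrnd had a mean of only 0.437 CPM before CY. The subunits are muscle genes, and the skeletal muscle marker sum had medians of 550, 442 and 674 CPM on the 3 days. The part of muscle in these values was not tested.

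Lrp1 (chr10:127538161-127621148, minus strand) had 742, 1048 and 1121 CPM (lowest, median, highest) in CR and 921, 1077 and 1166 CPM in PR before CY. On day 3 it had 1128, 1007, 1202, 1047 and 1066 CPM in CR and 1016, 1189, 1049, 1068 and 1103 CPM in PR. On day 7 it had 706, 753, 755, 950 and 831 CPM in CR and 822, 812, 759, 846 and 908 CPM in PR, below every tumor of day 3. The log2 fold change on day 3 was 0.01 (95% interval -0.08 to 0.09). It changed sign with the settings and was 0.08 (edgeR adjusted p = 0.0838) without the 16 tumors over 10 CPM of the skin keratin Krt5. By day 7 Lrp1 fell by 0.37 (SE 0.05, adjusted p = 4.69e-10). The median macrophage marker sum was 2662 CPM on day -1 and 9247 CPM on day 7, and that of fibroblasts 23473 and 14005 CPM. The part of these cells in the Lrp1 values was not tested.

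Lrp10 (chr14:54464137-54471497, plus strand) had 129, 147 and 157 CPM in CR and 118, 144 and 169 CPM in PR before CY. Its 10 tumors of day 3 lay between 183 and 229 CPM, all above day -1. On day 7 it had 259, 255, 275, 228 and 284 CPM in CR and 270, 265, 290, 256 and 291 CPM in PR, with 9 of 10 tumors above every tumor of day 3. Lrp10 rose 1.33-fold by day 3 (log2 fold change 0.41, SE 0.04, adjusted p = 7.19e-12) and 1.83-fold by day 7 (0.88, SE 0.04, adjusted p = 8.87e-24).

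Lrp12 (chr15:39870589-39943994, minus strand) had the greatest rise of the members. Before CY it had 12.3, 14.6 and 17.8 CPM in CR and 10.7, 12.5 and 16.4 CPM in PR. On day 3 it had 22.9, 26, 30, 33.6 and 29.1 CPM in CR and 24.3, 24.6, 24.6, 37.1 and 35.9 CPM in PR, all above day -1. On day 7 it had 41.2, 41.5, 51.2, 34.3 and 31.1 CPM in CR and 40.7, 42, 43.4, 36.9 and 46.3 CPM in PR, overlapping day 3. Lrp12 rose 1.98-fold by day 3 (log2 fold change 0.98, SE 0.07, adjusted p = 2.83e-16) and 2.88-fold by day 7 (1.53, SE 0.07, adjusted p = 7.95e-24).

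Of the ligands of the receptors, more were higher after CY than lower. Of 21 tested, 15 rose and 3 fell by day 3 (median log2 fold change 0.61), and 15 rose and 6 fell by day 7 (median 0.85), where 37.9% of all genes rose by day 3 and 43.0% by day 7. On day 3 the growth-arrest factor Gas6 (2.45, SE 0.13), Igfbp4 (1.96, SE 0.08), which can bind Lrp6, and the matrix protease Mmp2 (1.27, SE 0.10), cleared by Lrp1, rose beside Apoe. On day 7 complement C3 rose 42.8-fold (log2 fold change 5.42, SE 0.23), and Hpx, hemopexin, whose heme complex Lrp1 takes up, rose 40.3-fold (5.33, SE 0.19). The mean of Hpx before CY was only 0.962 CPM. Clu, clusterin, and Lpl, lipoprotein lipase, rose by 2.51 and 2.73.

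Among 5 receptor chaperones, 2 rose and 2 fell by day 3, and 3 rose and 1 fell by day 7, so that 4 of 5 were called on each day, near the 77.6% and 85.9% of all genes. Lrpap1, the receptor-associated protein that keeps newly made family receptors from binding ligands, rose 1.76-fold by day 3 and 2.08-fold by day 7 (log2 fold changes 0.82 and 1.06, SE 0.03 each, adjusted p = 1.26e-27 and 1.29e-32). Mesd, needed to fold Lrp5 and Lrp6, rose by 0.28 and 0.19. The general chaperone Canx fell by 0.25 and 0.45, Hsp90b1 fell by 0.17 by day 3, and Calr rose by 0.75 by day 7.

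The adaptors that bind the receptor tails split evenly on day 3, with 10 up and 9 down of 20 tested, and 8 rose and 12 fell by day 7. All genes were called in 77.6% and 85.9% of cases on these days, with both directions near even. Gulp1, an adaptor of Lrp1 in engulfment, fell by 0.99 and 2.24 on the log2 scale. Pafah1b1, a dynein regulator that acts downstream of reelin, fell by 0.59 and 0.71. Crk, a target of Dab1 signalling, fell by 0.56 by day 3, Nedd4, a ubiquitin ligase, fell by 1.94 by day 7, and Itgb1bp1 rose by 0.83 by day 7. Dab1 itself was near 0, with means of 0.0867 CPM on day -1, 0.131 CPM on day 3 and 0.122 CPM on day 7. It had at most 15 counts in any tumor and was not tested.

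Whether receptor levels went with the outcome of chemotherapy was asked by comparing CR with PR on each day. Before CY, 0 of the 6 members other than Lrp8 passed the edgeR test, against 0.00928% of all genes (1 of 10777). The number of genes called depended on the tool, at 344 by DESeq2 and 1188 by limma-voom, with 0 of the 6 among them. An unadjusted p under 0.05 was reached by 0 of the 6 by edgeR, DESeq2 or limma-voom, against 17.5% of all genes by edgeR. The member furthest from 0 was Lrp12, with a log2 fold change of 0.13 (95% interval -0.01 to 0.27, adjusted p = 0.332), and 11 of 13 CR tumors lay above the PR median. Lrp8 was 0.12 lower in CR on the log2 scale (SE 0.06). Of the 13 CR tumors, 2 lay above the PR median of 99.7 CPM, and of the 13 PR tumors, 10 lay above the CR median of 87.7 CPM, with the ranges overlapping. Intervals of the remaining members ran from -0.16 at the lowest (Lrp6) to 0.23 at the highest (Lrp4).

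On day 3, 0 of 7 members passed the edgeR test, as did 0% of all genes, and 0 had an unadjusted p under 0.05 by edgeR, DESeq2 or limma-voom, against 2.16% of all genes by edgeR. Lrp8 had a log2 fold change of 0.12 (95% interval -0.10 to 0.33), and all 5 CR tumors lay above the PR median of 7.49 CPM. On day 7 the counts were again 0 of 7, 0% and 0 by the same tools, with 2.84% of all genes at an unadjusted p under 0.05 by edgeR. In the model of all 46 tumors, Lrp4 was among the 7.38% of all genes that had an unadjusted p under 0.05. Lrp8 had 0.01 (interval -0.26 to 0.27), Lrp4 had 0.33 (interval -0.06 to 0.71) and Lrp5 -0.19 (interval -0.40 to 0.03). Without CR replicate 4, Lrp4 had 0.175, Lrp6 went from 0.15 to -0.01 and Lrp8 was at 0.10. With 5 tumors a group, the widest intervals, those of Lrp4 and Lrp6 on day 7, reached 0.71 and 0.47 on the log2 scale. Intervals here use a normal distribution and are too narrow for so few tumors, so larger differences are not excluded.

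**Figure D5:**
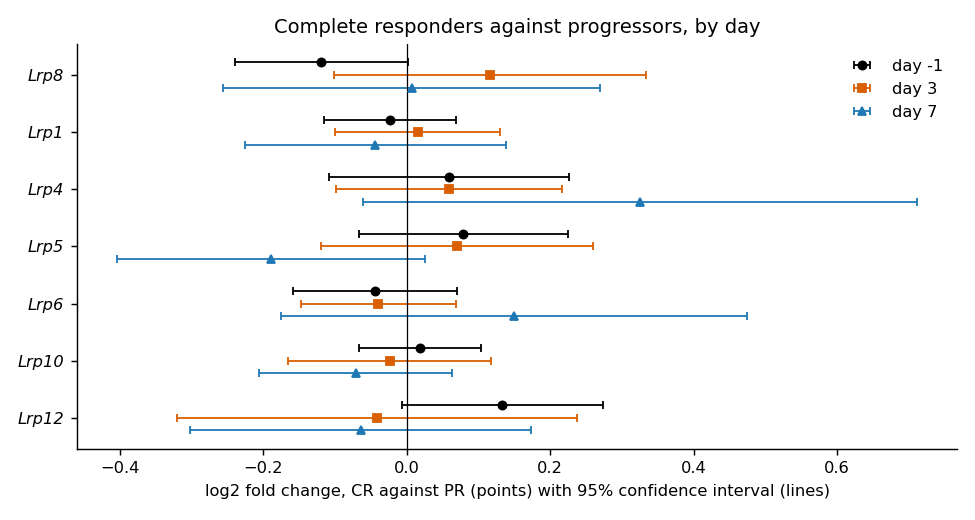
Log2 fold change of CR against PR (x axis) for the 7 members on day -1 (black, 13 against 13 tumors), day 3 (orange) and day 7 (blue, 5 against 5 each), with 95% confidence intervals as lines. Every interval of a tested difference includes 0, and those of Lrp4 and Lrp6 on day 7 are the widest. The interval of Lrp8 on day -1 is drawn as a description and carries no test.

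The change with time was also compared between CR and PR. Lrp8 was left untested here too, since its rank pointed to its change by day 3 as the reason for its choice. For the difference on day 3 against day -1, 0 of the 6 other members passed, as did 0% of all genes, and 0 had an unadjusted p under 0.05 by edgeR, DESeq2 or limma-voom, against 3.49% of all genes by edgeR. For day 7 against day -1, 0 of 6 passed, against 0.00758% of all genes (1 of 13194). Here Lrp5 had an unadjusted p under 0.05 by edgeR and DESeq2, as 11.5% of all genes had by edgeR, and no member had by limma-voom. Its interaction was -0.275 on the log2 scale, CR against PR (SE 0.14, 95% interval -0.54 to -0.01, edgeR adjusted p = 0.428). For Lrp8 the interaction was 0.23 (SE 0.14) on day 3 and 0.12 (SE 0.13) on day 7, given as a description.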

How the data were processed

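RNA from 46 tumors was sequenced single-end (50 bp in the labels, a longer read in the study's methods). The authors quantified reads with kallisto against GRCm38.p6 (version not given in the sources used here) and deposited estimated counts, as whole numbers, in a table of 46012 genes, of which 1 incomplete row was left out. Whether counting used strand is not given in the sources used here. Expected counts were tested with edgeR 4.0.16 (quasi-likelihood, TMM, filterByExpr, Benjamini-Hochberg, FDR under 0.1), CR against PR on the tumors of 1 day and days in 1 model of 6 groups. Adjusted p-values cover all genes tested. The tests set the difference of group means against the spread between tumors. Log2 CPM used a prior count of 2. DESeq2 1.42.0, limma 3.58.1 (voom with quality weights), other filters, covariates and left-out tumors were alternatives. The fit was tested on simulated data.

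The members and lists were chosen with earlier results of these data known. The design had assumed that Lrp8 was chosen on CR against PR before CY. Because its rank pointed to day 3 against day -1, it was left untested in both, between all days and in the interactions. Genes named from a list are up to 4 with the smallest p in a comparison, and the genes most like Lrp8 are the 5 with the highest Pearson r. Coordinates and exon lengths are from GENCODE M21. No pair of tumors of a group agreed within sampling noise (lowest chi-square per degree of freedom 4.53 over 196 pairs). The lists share Apoe, Mylip, Calr, Agrn, Lgr5 and Dkk1, and Lgr5 was tested in both Wnt lists. Some listed genes are not reported here.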

Additional observations from a re-analysis of the deposited data

Results flagged for a closer look

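Of 28 sets of 5 tumors (7 members in 4 groups), 1 held a tumor far from the others by Dixon's test at the 95% level, and chance gives about 1 in 20. It was Lrp5 in CR on day 7, where replicate 5 had 54.7 CPM and the others 37.9 to 40.9 CPM. Without it, the difference of CR against PR on that day was -0.295 on the log2 scale instead of -0.19. The PR tumors of that day had 41.3 to 52.8 CPM.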

How the results depend on the processing

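The counts of members called were the same under every alternative run, within 1.5 times: 4 of 6 on day 3 against day -1 (4 or 5 elsewhere), 6 of 6 on day 7 against both earlier days, and 0 elsewhere. The values that changed sign were those near 0. For CR against PR on day -1, Lrp1 was 0.038 and Lrp10 -0.013 without tumors over 10 CPM of Krt5, Lrp1 0.058 and Lrp10 -0.014 in tumors titled up to 14, and Lrp4 -0.006 in those above 14. For day 3 against day -1, Lrp4 was 0.020 with DESeq2 size factors and with DESeq2, 0.032 with no filter and 0.032 without tumors over 10 CPM of Krt5, and Lrp1 was -0.004 by limma-voom, -0.013 without the pair of tumors that stood apart and 0.077, past the threshold, without tumors over 10 CPM of Krt5. The last setting put Lrp8 on day 7 at -2.24. The cause was not tested.

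Leaving out 1 tumor turned the sign for CR against PR of Lrp1 on day -1 (-0.036 to 0.010), Lrp1 (-0.020 to 0.048), Lrp10 (-0.061 to 0.025) and Lrp12 (-0.103 to 0.060) on day 3, and Lrp8 (-0.071 to 0.097), Lrp6 (-0.013 to 0.228) and Lrp12 (-0.167 to 0.012) on day 7, and for day 3 against day -1 of Lrp1 (-0.017 to 0.055) and Lrp4 (-0.042 to 0.037). Over all genes, CR against PR on day -1 gave 1 call by edgeR, 344 by DESeq2, 1188 by limma-voom, 150 with the title number as a covariate, 8 in the model of all 46 tumors and 0 without tumors over 10 CPM of Krt5. On day 3 DESeq2 gave 4 calls and edgeR 0, and on day 7 DESeq2 gave 5, limma-voom 1 and edgeR 0. The day 3 interaction gave 6 calls by DESeq2 and the day 7 interaction 17. Of the synapse genes tested, 1 fell by day 3 instead of 2 with DESeq2 size factors, with DESeq2, with no filter, with tissue marker covariates and without tumors over 10 CPM of Krt5, and in the last setting 2 of 11 beta-catenin targets rose instead of 1 of 10. With no filter, 6 of 31 Wnt partners rose by day 7 instead of 3 of 27, 5 of 8 synapse genes instead of 3 of 6 and 2 of 8 relatives instead of 1 of 5. No paired analysis was possible because the replicate numbers were given in accession order and every tumor came from a different mouse. Each member had at least 133 counts in each tumor of days 3 and 7, and what depth limits was not tested.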
